A study of Mus musculus with 21 samples.

Results

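Protocadherins are the largest family of cadherin-like adhesion proteins in the mammalian brain, and their mRNAs were followed in the neocortex of rNLS8 mice. Members were taken from the count table by symbol. Every row named Pcdh followed by digits only, or starting with Pcdha, Pcdhb or Pcdhg, was taken, which gave 69 of 48474 rows. They comprised 14 alpha, 22 beta and 22 gamma genes, which lie in clusters on chromosome 18, and 11 nonclustered genes. Pcdh11x, a further protocadherin whose symbol ends in a letter, fell outside the rule and was followed with the other cadherins. The rule reads symbols and no measured value, while the family itself was picked with earlier results of these data known.

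Bulk RNAseq covered 21 mice, of which 11 were controls (labelled WT) and 10 were rNLS8 mice (labelled TG). In rNLS8 mice the human NEFH promoter drives the doxycycline-regulated activator tTA, which switches on a tetO transgene for human TDP-43 without its nuclear localization signal, so the transgene is expressed in neurons in which that promoter is active. The controls were littermates with 1 of both transgenes, and which one they carried is not stated. All 21 mice, controls included, were injected with a control antisense oligonucleotide without target (350 µg, 10 µL) into the cerebral ventricles at 17 to 19 weeks of age. They were fed doxycycline at 200 mg/kg until 2 weeks later, and the neocortex was taken after another 3 weeks without it. The labels name a batch, without saying of what. Batch A held 4 WT and 3 rNLS8 mice and batch B held 7 WT and 7 rNLS8 mice. Sex is not given in the labels. Xist, the RNA that silences an X chromosome in female cells, was above 100 normalized counts in all 7 mice of batch A, and in batch B in 3 of 7 WT and 1 of 7 rNLS8 mice. It was thus above this level in 7 of 11 WT and 4 of 10 rNLS8 mice, and the part of sex in the differences was addressed only by a fit with Xist as covariate.

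Each clustered alpha or gamma gene has its own first exon, which encodes the whole extracellular part, and is spliced to constant exons shared by its cluster, while each beta gene is a single exon. A neuron chooses few of these first exons through promoter methylation and through looping by CTCF and cohesin, and the resulting proteins bind only their own kind across cell contacts. This gives neurons an identity used in self-avoidance, axon tiling and synapse formation. Nonclustered protocadherins, most of them of the delta type, are separate genes whose proteins act in adhesion. Some of them, such as Pcdh10 and Pcdh17, also act in actin control through the WAVE complex.

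Tardbp, the gene of TDP-43, was measured first, in a table that does not separate reads of the human transgene from those of the mouse gene. It had 2253 to 2827 normalized counts in WT mice (median 2650) and 2363 to 5053 in rNLS8 mice (median 4500), and 9 of the 10 rNLS8 mice were above all WT mice. The exception, labelled T61340 and in batch A, had the 2363 normalized counts and lay within the WT range, so that Tardbp goes against its rNLS8 label. The same library was the lowest of all 21 mice for 30 of the 64 protocadherins tested and the highest for none. The log2 fold change of Tardbp was 0.62 (adjusted p = 1.50e-07) and 0.67 without this library. It was 0.26 in batch A (adjusted p = 0.191), which did not pass, and 0.79 in batch B (adjusted p = 1.42e-10), and the difference between batches had an interaction p of 7.31e-06 before and 0.133 after adjustment in edgeR. Values of batch A rest on 3 rNLS8 mice, of which this library is 1.

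Total counts per mouse were between 20700912 and 22263809, of which the 69 protocadherins held between 0.117% and 0.167%. Values are normalized counts, that is, counts divided by the TMM-scaled library size of the mouse and multiplied by the mean of these sizes. The genotypes were compared by the quasi-likelihood test of edgeR, with the batch in the model and adjustment over all 18248 genes tested, and 44.7% of these passed an adjusted p-value of 0.05, 23.0% as higher and 21.7% as lower in rNLS8 mice. Of the 69 protocadherins 64 were tested, and 35 passed, 13 as higher and 22 as lower. With scaling by library size only, 16 of the 64 were higher and 15 lower, and among all genes 5832 (32.0%) were higher and 2752 (15.1%) lower. Normalized counts of all rNLS8 mice were above those of all WT mice for 3.85% of the genes tested and below them for 3.80%. Of the 64 protocadherins, 0 were above and 2 below in this way.

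The direction was not the same in all groups. All 8 alpha, all 8 beta and all 4 nonclustered genes that passed were lower in rNLS8 mice, whereas 13 of the 15 gamma genes that passed were higher. Of the genes tested in each group, 8 of 10 alpha, 8 of 21 beta and 4 of 11 nonclustered genes were lower, to be read against 21.7% of all genes, and 13 of 22 gamma genes were higher, against 23.0%. The median log2 fold change was -0.52 over the 10 alpha genes tested, -0.26 over 21 beta genes, 0.25 over 22 gamma genes and -0.24 over 11 nonclustered genes, compared with -0.00067 over all genes tested. In bulk tissue, fewer cells of a type and less mRNA per cell cannot be told apart.

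Without the library labelled T61340, 7 alpha, 7 beta and 3 nonclustered genes were lower and none of them higher, while 13 gamma genes were higher and 2 were lower. In the same fit 23.3% of all genes were higher and 22.4% lower. Of the 64 genes tested only Pcdh9, which did not pass, changed sign (-0.04, and 0.02 without this library). The summed counts of neuronal markers in it were the highest among rNLS8 mice at 112926.

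The neuronal markers themselves moved with genotype. Summed over Rbfox3, Snap25, Syt1, Stmn2, Slc17a7, Gad1 and Gad2, they ranged from 115489 to 143897 in WT mice and from 85680 to 112926 in rNLS8 mice, so all 10 rNLS8 mice were below all WT mice. Without Snap25 the ranges overlapped, with 75217 to 96332 in WT and 62588 to 83441 in rNLS8 mice and 6 of them below all WT mice. Snap25, Syt1, Stmn2, Gad1 and Gad2 fell by between 0.32 and 0.76 on the log2 scale. Gad2 had an adjusted p of 0.0413 in edgeR, passed in only 10 of 21 fits that left out 1 mouse and did not pass without the library labelled T61340 (adjusted p = 0.0732), with Xist as covariate (0.0545) or in DESeq2 (0.0550). Rbfox3 (-0.10, adjusted p = 0.189) and Slc17a7 (0.06, adjusted p = 0.561) did not pass. Rbfox3 was lower without the library labelled T61340 (-0.16, adjusted p = 0.00657) and in batch B alone (-0.19, adjusted p = 0.00677), against 0.08 in batch A. Of 4 markers of excitatory layers, Bcl11b and Foxp2 were lower. Of 5 microglia markers 3 were higher and 1 was lower, and of 5 astrocyte markers Gfap was higher by 1.03 and the other 4 were lower. Of the endothelial markers 2 of 4 were lower, and no marker of oligodendrocytes, their precursors or choroid plexus passed. Summed, the 3 choroid plexus markers ranged from 287 to 45663 normalized counts in WT and from 503 to 23534 in rNLS8 mice. Their log2 fold changes were below 0 in batch A and above 0 in batch B, without passing (for Ttr -1.49 and 1.19). None of these markers was at 0. The part of these markers in the differences of protocadherins was not tested.

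Per kb of own exon, levels in WT mice were highest for Pcdh1 (615 ± 55.1 normalized counts per kb, SD, n = 11), followed by Pcdh9 (509 ± 61.1), Pcdhgc3 (469 ± 41.7) and Pcdhgc5 (424 ± 34.5). Pcdh7 (312 ± 38.0), Pcdh10 (273 ± 25.6) and Pcdhac2 (215 ± 18.1) came next. Pcdh1 and Pcdh9, Pcdh9 and Pcdhgc3, Pcdhgc3 and Pcdhgc5, and Pcdh7 and Pcdh10 differed by less than the sum of their SDs. No beta gene exceeded 98.6 per kb in WT mice. Reads in shared constant exons can add to the alpha and gamma values.

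The alpha cluster spans 258.6 kb of chromosome 18 (GRCm38, 36930285 to 37188897). Summed over its genes, WT mice had 1167 normalized counts at the lowest, 1353 at the median and 1521 at the highest, and rNLS8 mice had 661, 984 and 1121. All 10 rNLS8 mice were below all WT mice, and the mean in rNLS8 mice was 69.8% of that in WT mice (1374 ± 113, SD, n = 11, against 959 ± 139, SD, n = 10). On the log2 scale the ratio of the means was -0.62 in batch A and -0.49 in batch B. Without the library labelled T61340 the lowest rNLS8 mouse had 832.

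**Figure D1:**
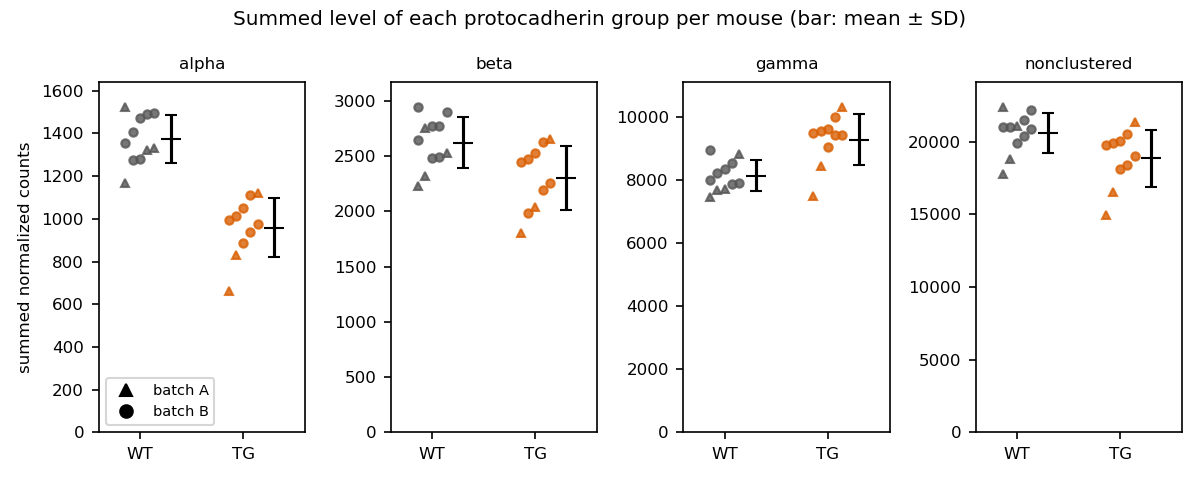
Summed normalized counts of the alpha, beta, gamma and nonclustered protocadherins (vertical axes, from 0) in each WT and rNLS8 (TG) mouse, with triangles for batch A, circles for batch B and bars for mean ± SD. The alpha sums do not overlap between genotypes (highest rNLS8 mouse 1121, lowest WT mouse 1167), and the gamma sums of 8 rNLS8 mice lie above all WT mice.

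Pcdhac2, a C-type gene that neurons use without the random choice of the other alpha genes, had the highest level of the cluster with 215 normalized counts per kb of own exon in WT mice. It had between 553 and 727 normalized counts in WT mice (median 660) and between 304 and 549 in rNLS8 mice (median 467). The genotypes did not overlap. The log2 fold change was -0.54 (SE 0.076, adjusted p = 2.61e-06), with -0.59 in batch A and -0.52 in batch B.

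Pcdha12 was second in level with 70.6 normalized counts per kb in WT mice. It had 138 to 201 normalized counts in WT mice (median 177) and 87.8 to 146 in rNLS8 mice (median 116). In 9 of 10 rNLS8 mice it was below the lowest WT mouse, and it was lower by a log2 fold change of -0.60 (SE 0.078, adjusted p = 8.3e-07). Pcdhac1, the other C-type gene of the cluster, had 36.5 to 94.3 normalized counts in WT mice (median 75.0) and 34.3 to 54.6 in rNLS8 mice (median 46.7). Its ranges overlapped, with only 1 rNLS8 mouse below all WT mice, and its log2 fold change was -0.70 (SE 0.13, adjusted p = 6.49e-05). The spread of Pcdhac1 among WT mice was 73.2 ± 15.6 (SD, n = 11) against 45.1 ± 5.99 (SD, n = 10) in rNLS8 mice.

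The other alpha genes that passed had fewer counts than Pcdhac2 and Pcdha12. Pcdha1, the first gene of the cluster, had the largest log2 fold change of the alpha genes (-0.77, SE 0.19, adjusted p = 0.00191) at few counts, 29.3 ± 8.29 (SD, n = 11) in WT and 17.1 ± 5.26 (SD, n = 10) in rNLS8 mice. Pcdha11 fell from 84.1 ± 24.2 to 56.4 ± 7.33 normalized counts (log2 fold change -0.58, adjusted p = 0.00173), although no rNLS8 mouse was below the lowest WT mouse at 44.9. Pcdha5 and Pcdha3 fell by 0.50 and 0.41 on the log2 scale (adjusted p = 0.000796 and 0.0203). Pcdha9 fell by 0.38 (adjusted p = 0.0274), but it no longer passed without the library labelled T61340 (adjusted p = 0.0587), without rNLS8 mouse T60303 (0.0635) or without rNLS8 mouse T_70261 (0.0516). Pcdha2 (-0.34, adjusted p = 0.0569) and Pcdha10 (-0.26, adjusted p = 0.109) did not pass.

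The remaining 4 alpha genes were not tested across all mice because their counts were too low. Pcdha8 had 212 counts over all mice, at most 20 in a mouse. Pcdha4 and Pcdha7 were listed at 0 in all mice and Pcdha6 at 1 count in 1 mouse. RefSeq holds further models, Gm37013, Gm38666 and Gm38667, that start in the first exons of this cluster and end with the gamma cluster, and these were also listed at 0, so a count of 0 here is not evidence that a first exon was silent. The alpha genes share 3 constant exons of 2.86 kb and the gamma genes share 3 of 2.12 kb. The labels name RSEM among the tools, but not the options or annotation by which reads in these exons were assigned. Members of 1 cluster are therefore not independent measurements. Gene models on the other strand overlap 17 of the 69 protocadherins, among them 9 that passed (Pcdh7, Pcdh19, Pcdha11, Pcdha12, Pcdhb12, Pcdhga1, Pcdhga8, Pcdhga10 and Pcdhga11), and it is not stated whether counting used strand. The longest transcripts of the gamma genes tested had a median GC content of 53.0%, compared with 47.3% for alpha, 45.6% for beta and nonclustered genes and 49.8% for all genes tested, and the part of base composition in the differences was not tested.

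The beta cluster (256.4 kb, 37264998 to 37521419) has no constant exons, although the exon models of Pcdhb21 and Pcdhb22 share 0.455 kb. Its summed level was 2623 ± 230 (SD, n = 11) in WT and 2303 ± 290 (SD, n = 10) in rNLS8 mice, and 4 rNLS8 mice were below all WT mice. Of the 21 genes tested 8 were lower, none was higher, and 13 did not pass. With scaling by library size only, 5 were lower, compared with 15.1% of all genes. On the log2 scale the ratio of the mean sums was -0.18 in batch A and -0.20 in batch B.

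Pcdhb7 had 121 to 163 normalized counts in WT mice (median 149) and 66.6 to 112 in rNLS8 mice (median 86.6). It was the only 1 of the 21 beta genes tested whose genotypes did not overlap, compared with 3.80% of all genes that were lower without overlap. Its log2 fold change was -0.70 (SE 0.083, adjusted p = 2.49e-07), with -0.63 in batch A and -0.73 in batch B. Its neighbours Pcdhb5 and Pcdhb6 fell as well. Pcdhb5 had 92.9 to 151 normalized counts in WT mice (median 111) and 63.7 to 95.04 in rNLS8 mice (median 74.3), with 9 rNLS8 mice below all WT mice (log2 fold change -0.57, SE 0.093, adjusted p = 2.33e-05). Pcdhb6 had 64.0 ± 15.2 (SD, n = 11) and 45.2 ± 12.6 (SD, n = 10), with overlapping ranges (log2 fold change -0.53, adjusted p = 0.0043). The next gene, Pcdhb8, did not pass (-0.32, adjusted p = 0.133).

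At the far end of the cluster Pcdhb21 fell from 45.8 ± 5.05 to 31.9 ± 8.21 normalized counts (log2 fold change -0.53, adjusted p = 0.00164) and Pcdhb22 from 114 ± 14.9 to 95.6 ± 13.9 (-0.26, adjusted p = 0.0199). Pcdhb13 (-0.43, adjusted p = 0.00114) and Pcdhb12 (-0.26, adjusted p = 0.0111) lie next to each other and were lower. Pcdhb19 was near the threshold (-0.26, adjusted p = 0.0404) and passed in only 11 of 21 fits that each left out 1 mouse. Pcdhb9, with 98.6 normalized counts per kb in WT mice the highest of the cluster, had 224 to 361 normalized counts in WT mice (median 308) and 262 to 386 in rNLS8 mice (median 316) and did not pass (log2 fold change 0.08, SE 0.070, adjusted p = 0.407). Pcdhb20, with 217 ± 31.9 (SD, n = 11) and 211 ± 41.2 (SD, n = 10), and Pcdhb17, with 267 ± 37.2 and 265 ± 42.2, in WT and rNLS8 mice, did not pass either. Over all 13 beta genes that did not pass, log2 fold changes lay between -0.32 and 0.08. Pcdhb16 was listed at 41.4 normalized counts in the library labelled T61340, against 139 in the lowest WT mouse. Pcdhb1 was not tested, with 63 counts over all mice.

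**Figure D2:**
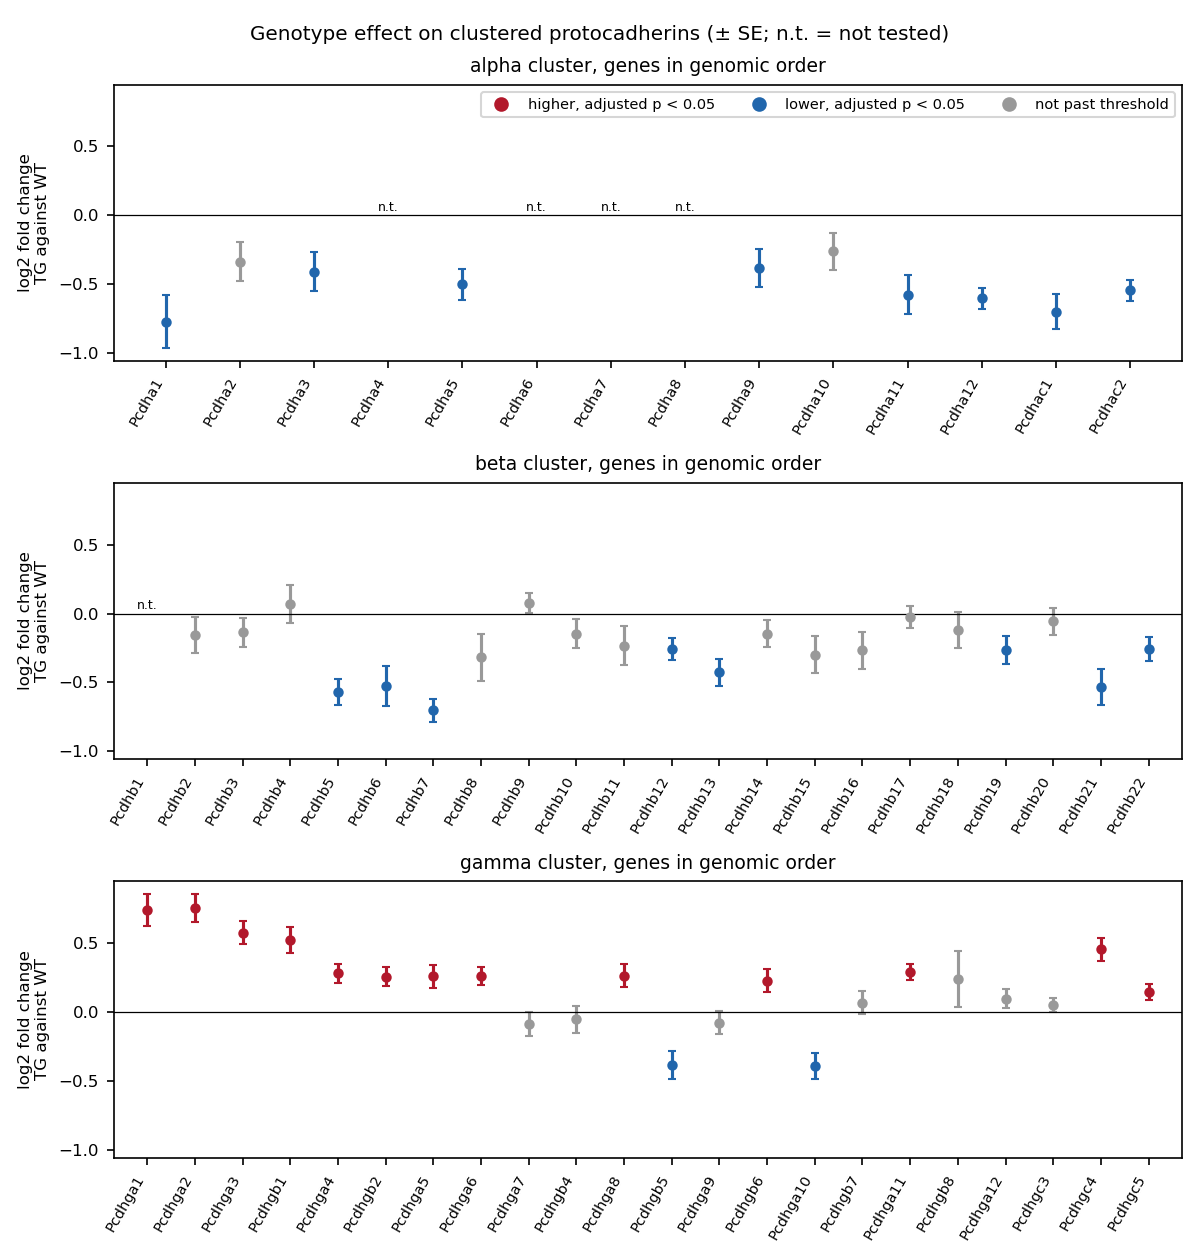
Log2 fold change of rNLS8 (TG) against WT mice with SE (vertical axes) for the alpha, beta and gamma genes in their order along chromosome 18, with red for higher, blue for lower, grey for not past the threshold and n.t. for not tested. All alpha values lie below 0, and the first 8 gamma genes, from Pcdhga1 to Pcdhga6, are all higher.

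The gamma cluster (180.1 kb, 37661775 to 37841873) moved the other way. Its summed level was 8133 ± 480 (SD, n = 11) in WT and 9271 ± 803 (SD, n = 10) in rNLS8 mice. WT mice lay between 7457 and 8932 (median 8001) and rNLS8 mice between 7471 and 10287 (median 9451), with 8 rNLS8 mice above all WT mice and the library labelled T61340 the lowest. Without this mouse the lowest rNLS8 mouse had 8448. On the log2 scale the ratio of the mean sums was 0.14 in batch A and 0.20 in batch B. The ratio of summed gamma to summed alpha counts was 5.35 to 7.01 in WT mice (median 5.80) and 8.99 to 11.3 in rNLS8 mice (median 9.55), and it did not overlap between genotypes. As the alpha sums alone did not overlap and the gamma sums moved the other way, this ratio adds no separate result. The library labelled T61340 had the highest ratio, and without it rNLS8 mice had at most 10.6.

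The log2 fold changes of the gamma genes varied along the cluster. The first 8 genes, from Pcdhga1 to Pcdhga6, were all higher in rNLS8 mice, and the largest differences were in the first 4. Over the 19 gamma genes of types A and B, the rank correlation of position with log2 fold change was -0.63. It is a description over genes that share constant exons and libraries. With the C-type genes it was -0.49 over 22 gamma genes, compared with -0.22 over the 10 alpha genes tested, C-type genes included, and 0.01 over 21 beta genes.

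Pcdhga2 had 120 to 252 normalized counts in WT mice (median 201) and 223 to 399 in rNLS8 mice (median 324). All rNLS8 mice but 1 were above all WT mice. The log2 fold change was 0.75 (SE 0.10, adjusted p = 1.82e-06), with 0.96 in batch A and 0.66 in batch B. Pcdhga1 had 62.7 to 108 normalized counts in WT mice (median 78.4) and 89.8 to 192 in rNLS8 mice (median 140), 7 of them above all WT mice (log2 fold change 0.74, SE 0.12, adjusted p = 1.2e-05).

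Pcdhga3 had 192 to 335 normalized counts in WT mice (median 250) and 327 to 453 in rNLS8 mice (median 376), so that the highest WT mouse was just above the lowest rNLS8 mouse (log2 fold change 0.58, SE 0.084, adjusted p = 5.31e-06). Pcdhgb1 rose from 149 ± 25.8 (SD, n = 11) to 216 ± 30.1 (SD, n = 10), with 9 rNLS8 mice above all WT mice (0.52, adjusted p = 8.02e-05). The following genes Pcdhga4, Pcdhgb2, Pcdhga5 and Pcdhga6 had log2 fold changes between 0.26 and 0.28. Among them Pcdhga4 rose from 253 ± 42.2 (SD, n = 11) to 312 ± 45.8 (SD, n = 10) normalized counts, with 8 rNLS8 mice above all WT mice, and Pcdhga6 from 309 ± 32.5 to 374 ± 48.3, with 7 of them above. The direction of these 4 genes was the same in both batches.

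Further along, directions were mixed. Pcdhga11 rose from 442 ± 34.8 to 546 ± 68.7 normalized counts (log2 fold change 0.29, SE 0.060, adjusted p = 0.000297), and 8 rNLS8 mice were above all WT mice. Pcdhga10, its neighbour but for Pcdhgb7, fell from 182 ± 17.9 to 141 ± 31.3 (-0.39, SE 0.097, adjusted p = 0.00197), with 6 rNLS8 mice below all WT mice. Pcdhgb5 fell by the same amount (-0.39, SE 0.10, adjusted p = 0.00363). Pcdhga8 (0.26) and Pcdhgb6 (0.23) were higher, the latter in only 14 of 21 fits that left out 1 mouse. Pcdhga7, Pcdhgb4, Pcdhga9, Pcdhgb7, Pcdhgb8 and Pcdhga12 did not pass, with values between -0.09 and 0.24. Among these, Pcdhga7 had the smallest p-value of all protocadherins for a difference between batches (log2 fold change -0.40 in batch A and 0.06 in batch B, unadjusted interaction p = 0.00558 from edgeR), which did not pass after adjustment. Pcdhgb8 is annotated as a transcribed pseudogene.

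The 3 C-type gamma genes lie last in the cluster. Pcdhgc4, which is needed for neuronal survival, had 205 to 338 normalized counts in WT mice (median 271) and 277 to 455 in rNLS8 mice (median 374). Of the rNLS8 mice 8 were above all WT mice, and the log2 fold change was 0.46 (SE 0.083, adjusted p = 7.75e-05). Pcdhgc3, which had the highest level per kb of the cluster (469 in WT mice), had 1352 to 1808 normalized counts in WT mice (median 1591) and 1377 to 1875 in rNLS8 mice (median 1600) and did not pass (log2 fold change 0.05, SE 0.050, adjusted p = 0.439). Pcdhgc5, with 424 per kb, was near the threshold (log2 fold change 0.15, SE 0.059, adjusted p = 0.0468) and passed in only 10 of 21 fits that left out 1 mouse. Both C-type genes of alpha, in contrast, were lower.

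**Figure D3:**
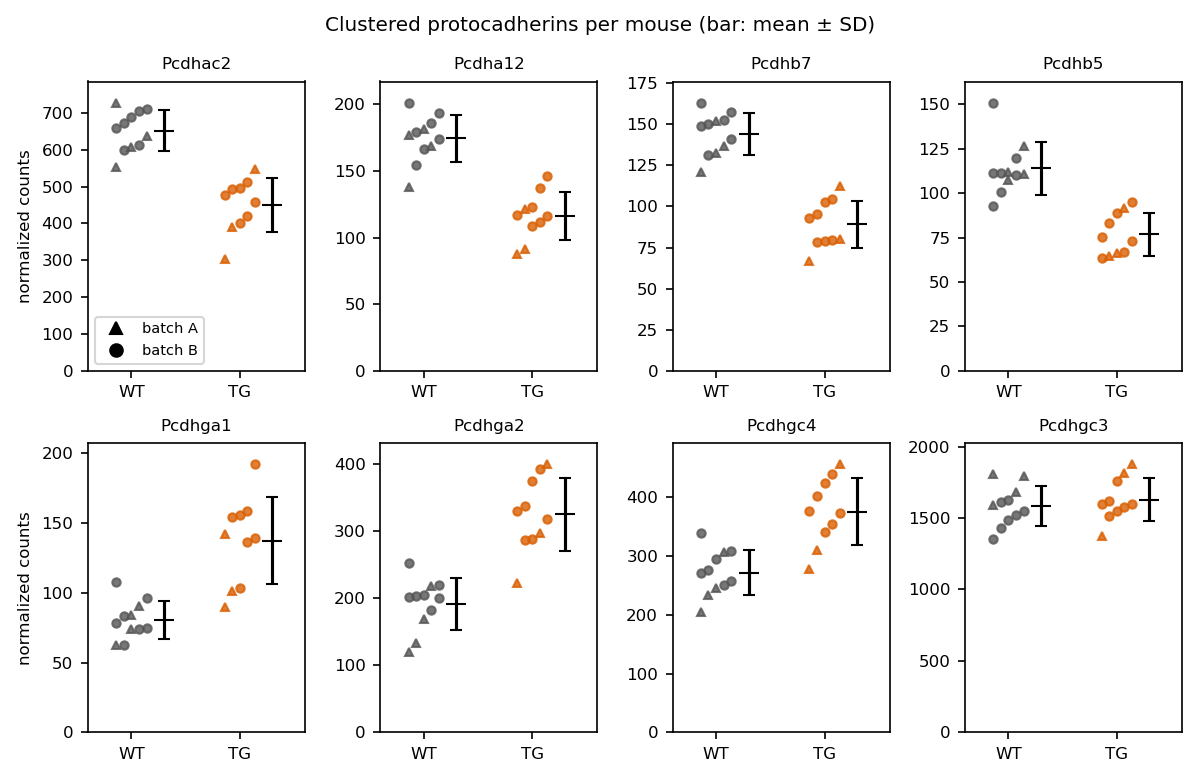
Normalized counts (vertical axes, from 0) of 8 clustered protocadherins in each WT and rNLS8 (TG) mouse, with triangles for batch A, circles for batch B and bars for mean ± SD. Pcdhac2 and Pcdhb7 do not overlap between genotypes, Pcdhga2 of 9 rNLS8 mice lies above all WT mice, and Pcdhgc3 overlaps.

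The nonclustered protocadherins had a summed level of 20613 ± 1368 (SD, n = 11) in WT and 18855 ± 1949 (SD, n = 10) in rNLS8 mice, and 2 rNLS8 mice were below all WT mice. The log2 ratio of the mean sums was -0.18 in batch A and -0.11 in batch B. Pcdh7, Pcdh17, Pcdh19 and Pcdh20 were lower, none was higher, and 7 did not pass. With scaling by library size only, 2 were lower and 1 was higher, compared with 15.1% and 32.0% of all genes. For these 4 genes the 250 bases before the start site given in RefSeq (GRCm38.p6) are shown from 5′ to 3′ on the strand of the gene, since they border the starts of the mRNAs that fell. Capitals mark a GC box (GGGCGG or its reverse complement CCGCCC), the site of Sp1 factors, which 32.7% of 32851 promoter windows of this length hold. RefSeq annotates further starts upstream of those used here for Pcdh7 and Pcdh19.
Pcdh7 (chr5:57717831-57718080, plus strand): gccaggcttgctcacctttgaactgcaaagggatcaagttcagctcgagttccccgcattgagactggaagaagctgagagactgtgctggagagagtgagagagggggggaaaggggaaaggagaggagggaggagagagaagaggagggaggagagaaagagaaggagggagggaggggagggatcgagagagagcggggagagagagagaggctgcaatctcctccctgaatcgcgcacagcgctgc
Pcdh17 (chr14:84443313-84443562, plus strand): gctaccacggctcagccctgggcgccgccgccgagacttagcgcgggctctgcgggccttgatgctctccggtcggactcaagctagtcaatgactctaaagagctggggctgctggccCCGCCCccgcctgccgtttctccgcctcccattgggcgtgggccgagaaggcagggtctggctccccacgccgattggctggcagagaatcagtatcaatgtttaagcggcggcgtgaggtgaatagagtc
Pcdh19 (chrX:133688994-133689243, minus strand): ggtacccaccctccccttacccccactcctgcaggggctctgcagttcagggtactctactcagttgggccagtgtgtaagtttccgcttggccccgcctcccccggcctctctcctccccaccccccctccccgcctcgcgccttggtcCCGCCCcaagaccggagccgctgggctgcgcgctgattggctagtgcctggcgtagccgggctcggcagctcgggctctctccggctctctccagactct
Pcdh20 (chr14:88471397-88471646, minus strand): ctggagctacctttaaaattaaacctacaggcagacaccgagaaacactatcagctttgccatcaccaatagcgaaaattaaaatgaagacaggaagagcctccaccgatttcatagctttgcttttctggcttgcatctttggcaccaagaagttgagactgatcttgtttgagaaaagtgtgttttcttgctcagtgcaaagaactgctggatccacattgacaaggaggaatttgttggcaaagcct

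The windows differ in base composition, with a GC content of 58.4% for Pcdh7, 64.8% for Pcdh17, 69.2% for Pcdh19 and 42.4% for Pcdh20. They hold 7, 21, 16 and 3 CG dinucleotides. Pcdh17 and Pcdh19 hold 1 GC box each and the others hold none, and no window of the 4 has the letters TATAAA, which 12.4% of all windows hold on either strand. Pcdh10 and Pcdh18, which did not pass, hold 1 GC box each as well.

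Pcdh7 (chromosome 5, 57716145 to 58133236), a delta protocadherin that binds the phosphatase regulator SET, had 2797 to 3967 normalized counts in WT mice (median 3384) and 1514 to 3028 in rNLS8 mice (median 2452). In 9 rNLS8 mice it was below all WT mice. The log2 fold change was -0.50 (SE 0.086, adjusted p = 4.06e-05), with -0.61 in batch A and -0.45 in batch B.

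Pcdh19 (chromosome X, 133582860 to 133689044), the gene of a female-limited epilepsy, acts together with N-cadherin in adhesion. It had 675 to 1305 normalized counts in WT mice (median 964) and 372 to 954 in rNLS8 mice (median 711), with 4 rNLS8 mice below all WT mice. The log2 fold change was -0.48 (SE 0.13, adjusted p = 0.00326), with -0.80 in batch A and -0.32 in batch B, and it passed as well with the level of Xist as covariate (adjusted p = 0.00544).

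Pcdh17 (chromosome 14, 84443563 to 84537565), which brings the WAVE complex to axon contacts, had 1258 to 1994 normalized counts in WT mice (median 1500) and 721 to 1664 in rNLS8 mice (median 1247). Its ranges overlapped, and 5 rNLS8 mice were below all WT mice (log2 fold change -0.31, SE 0.098, adjusted p = 0.0122). Pcdh20 (chromosome 14, 88464743 to 88471396) had 374 to 714 normalized counts in WT mice (median 435) and 244 to 489 in rNLS8 mice (median 363), with a log2 fold change of -0.33 (SE 0.12, adjusted p = 0.0247). Without the library labelled T61340 it did not pass (adjusted p = 0.0568).

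Of the 4 nonclustered genes with the highest levels per kb, Pcdh7 passed and the other 3 did not. Pcdh1, with 615 normalized counts per kb of exon in WT mice, had 4775 to 6207 normalized counts in WT mice (median 5558) and 5049 to 7161 in rNLS8 mice (median 5313), with a log2 fold change of 0.06 (SE 0.055, adjusted p = 0.43). Pcdh9, with 509 per kb, had -0.04 (SE 0.078, adjusted p = 0.696) and the library labelled T61340 was the lowest at 1961 normalized counts, against 2905 in the lowest WT mouse. Pcdh10, which binds Nckap1 of the WAVE complex, had 273 per kb and a log2 fold change of -0.09 (SE 0.054, adjusted p = 0.165).

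The others were lower in level. Pcdh8, induced by neuronal activity, had 156 per kb and a log2 fold change of -0.10 (adjusted p = 0.456). Pcdh18 had 26.7 per kb and -0.17 (adjusted p = 0.227). Pcdh15, the tip-link protein of hair cells, had 11.3 per kb and -0.24 (adjusted p = 0.0976). Pcdh12, a protocadherin of endothelium, was measured at only 13.0 ± 5.58 (SD, n = 11) and 8.30 ± 3.59 (SD, n = 10) normalized counts and had -0.62 (SE 0.27, adjusted p = 0.0682), and it passed in 6 of the 14 fits with 1 mouse left out in which it was tested.

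**Figure D4:**
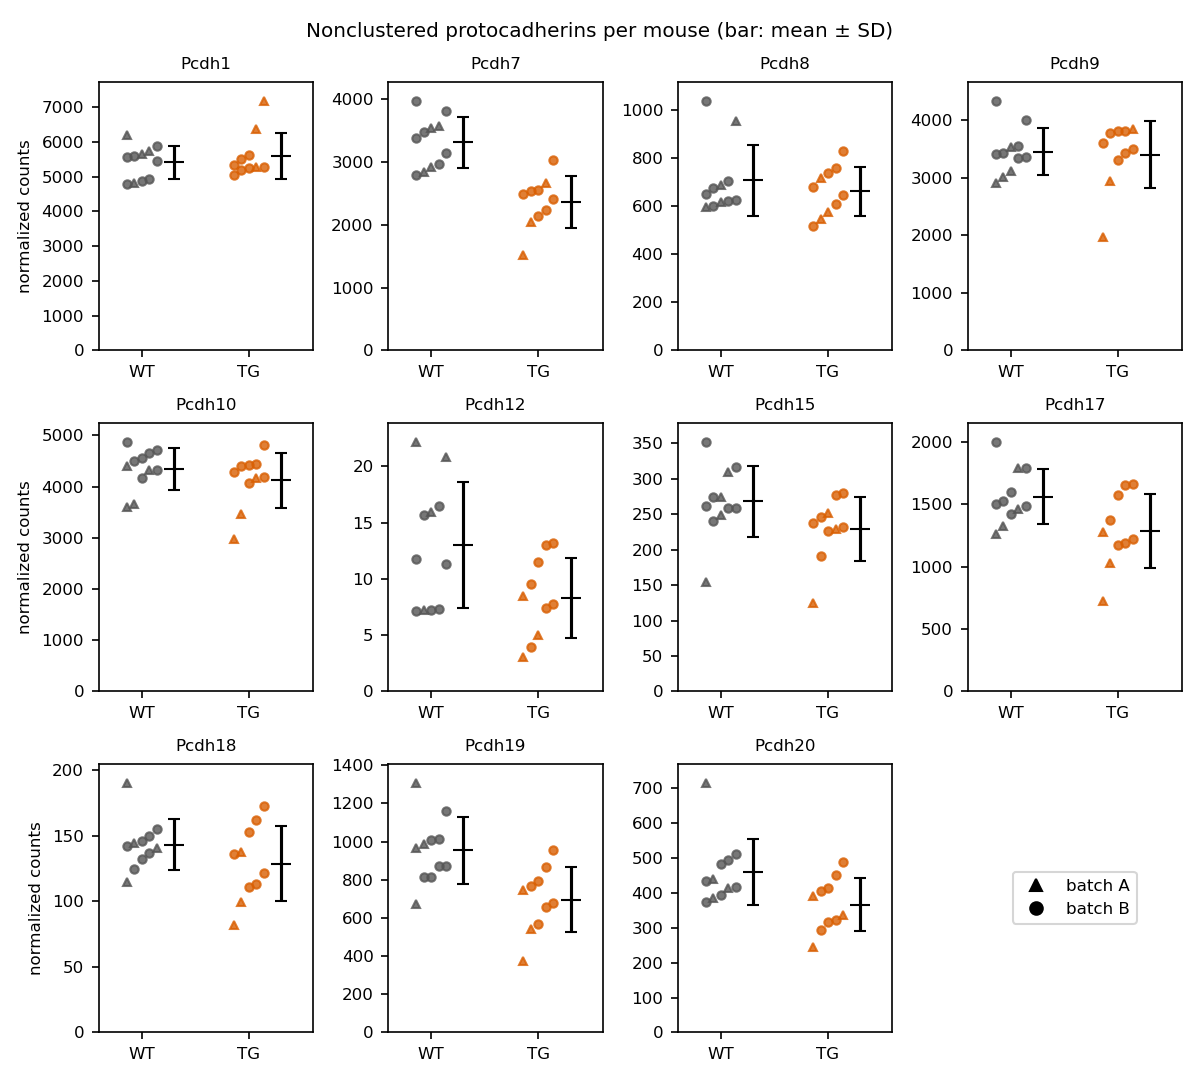
Normalized counts (vertical axes, from 0) of the 11 nonclustered protocadherins in each WT and rNLS8 (TG) mouse, with triangles for batch A, circles for batch B and bars for mean ± SD. Pcdh7 of 9 rNLS8 mice lies below all WT mice, and the lowest of the points labelled TG for Pcdh7, Pcdh9, Pcdh10, Pcdh15, Pcdh17, Pcdh18, Pcdh19 and Pcdh20 is the library labelled T61340.

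Each batch was also analysed alone. In batch B, where 19.3% of all genes were higher and 19.8% lower, 6 alpha, 7 beta and 2 nonclustered genes were lower and 11 gamma genes were higher and 1 was lower. In batch A, with 3 rNLS8 mice, 6.99% of genes were higher and 4.83% lower, and 2 alpha genes, 1 nonclustered gene and no beta gene were lower while 1 gamma gene was higher. Of these alpha genes, Pcdha12 was also tested across all mice, whereas Pcdha8 was kept by the expression filter in batch A only. The sign was the same in both batches for 10 of 10 alpha, 15 of 21 beta, 19 of 22 gamma and 10 of 11 nonclustered genes. The batches share no mice. A difference of the genotype effect between batches, tested with edgeR's interaction term, passed for none of the 64 genes after adjustment (0.00% of all genes). At an unadjusted p-value under 0.05 there were 4 of them (5.64% of all genes), and DESeq2's interaction term called none.

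**Figure D5:**
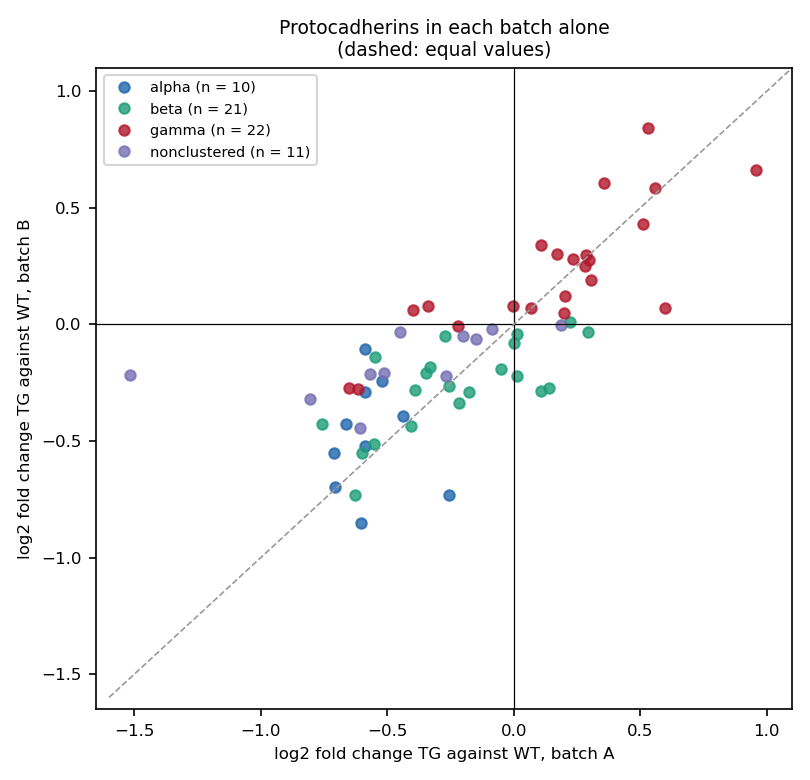
Log2 fold change of rNLS8 (TG) against WT mice in batch A (horizontal axis) and batch B (vertical axis) for the 64 protocadherins tested in both, coloured by group, with a dashed line of equal values. All 10 alpha genes lie below 0 on both axes, and most gamma genes lie above 0 on both.

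The cluster is bordered and interrupted by other genes. Within 500 kb of it, 30 other genes were tested, and rNLS8 mice had 13 of them higher and 3 lower, compared with 23.0% and 21.7% of all genes. By position, Zmat2 is the nearest gene tested before the alpha cluster, Taf7 lies between the beta and gamma clusters and Diaph1 is the nearest after it. Zmat2, of the spliceosome, had 2367 to 3242 normalized counts in WT mice and 1560 to 1781 in rNLS8 mice without overlap (log2 fold change -0.73, adjusted p = 4.03e-11). Taf7, a subunit of TFIID, was higher by 0.21 (adjusted p = 0.00918), and Diaph1 did not pass (-0.11, adjusted p = 0.0833).

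Regulators of protocadherin choice were followed in a list of 23 genes, all tested. Of these 5 were higher and 4 were lower, with a median log2 fold change of 0.04, and these counts lie near the 23.0% higher and 21.7% lower of all genes. With scaling by library size only, 7 were higher and 1 was lower, compared with 32.0% and 15.1% of all genes. Among the cohesin genes, Smc1a fell from 1536 ± 259 (SD, n = 11) to 1175 ± 223 (SD, n = 10) normalized counts (log2 fold change -0.42, adjusted p = 1.72e-05) while Rad21 rose from 2873 ± 206 to 3377 ± 229 (0.22, adjusted p = 7.02e-05). Mau2, of the cohesin loader, was higher (0.20, adjusted p = 0.000637) and Pds5b, a cohesin cofactor, was lower (-0.20, adjusted p = 0.0177). Wiz, a zinc finger protein found with CTCF and cohesin at protocadherin promoters, was higher (0.19, adjusted p = 0.000523), as was Rest, a repressor of neuronal genes (0.27, adjusted p = 0.0266). The other genes that passed were Wapl (0.16), Dnmt1 (-0.16) and Ctcf (-0.11, adjusted p = 0.0296), with smaller differences. Ctcf passed in 15 of 21 fits that left out 1 mouse and not without the library labelled T61340 (adjusted p = 0.0547), and Rest in 17 of 21.

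Binding partners and effectors of protocadherins were followed in another list of 23 genes, of which 15 were lower, 3 were higher and 5 did not pass, with a median of -0.19. Of all genes, 21.7% were lower and 23.0% higher. With scaling by library size only, 11 were lower and 4 higher, compared with 15.1% and 32.0% of all genes. The WAVE complex, an activator of actin branching to which Pcdh10 and Pcdh17 bind, had several members among them. Wasf1 had 2982 to 4311 normalized counts in WT mice (median 3956) and 1868 to 2881 in rNLS8 mice (median 2418) without overlap (log2 fold change -0.65, SE 0.065, adjusted p = 1.82e-08). Nckap1 (-0.54, adjusted p = 6.37e-09) and Abi2 (-0.52, adjusted p = 3.87e-08) were lower and did not overlap either. Other members of the complex in the list differed less. Cyfip2 (-0.32), Abi1 (-0.26) and Brk1 (-0.12, adjusted p = 0.0293) were lower, Brk1 in 16 of 21 fits that left out 1 mouse. Cyfip1 did not pass (-0.07, adjusted p = 0.138).

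Rac1, the small GTPase that activates this complex, had 5788 to 6696 normalized counts in WT mice and 4148 to 5150 in rNLS8 mice (-0.40, adjusted p = 9.27e-09). Ptk2, the kinase FAK that clustered protocadherins restrain, was lower (-0.42, adjusted p = 8.34e-09), as was Ctnna2, an alpha-catenin of neurons (-0.49, adjusted p = 2.12e-09), again without overlap. For the list as a whole, 7 genes did not overlap as lower and 1 as higher, compared with 3.80% and 3.85% of all genes.

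Other genes of the cadherin superfamily were compared in a list of 26, of which 25 were tested, 10 were lower, 1 was higher and 14 did not pass, with a median of -0.16, to be read against the same shares of all genes, 21.7% lower and 23.0% higher. With scaling by library size only, 5 were lower and 2 higher, compared with 15.1% and 32.0% of all genes. Cdh4 (-0.57, adjusted p = 0.000125), Cdh9 (-0.54, adjusted p = 4.89e-05) and Cdh22 (-0.46, adjusted p = 6.1e-07) had the largest differences of those that passed, followed by Clstn2, a calsyntenin of synapses (-0.40, adjusted p = 1.96e-05), and Cdh6 (-0.37, adjusted p = 0.000549). Fat1 was lower as well (-0.29, adjusted p = 0.0344), but passed in only 12 of 21 fits that left out 1 mouse (without the library labelled T61340, adjusted p = 0.0562). Pcdh11x, the protocadherin outside the rule for members, did not pass (0.08, adjusted p = 0.66). No gene of this list was without overlap between genotypes. The gene that was higher is Cdh18 (0.20, adjusted p = 0.00764), named outside the rule because it was the only one.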

How the data were processed

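Bulk RNAseq of neocortex was measured in 21 mice, and genotype, batch and mouse number came from the sample labels. The counts deposited by the authors are whole reads for each gene symbol and are not normalized; per the labels the build was mm10 and the tools named were HISAT2, Bowtie2 and RSEM, while the counting options and annotation are not given in the sources used here. Total counts per mouse (20700912 to 22263809) limit the precision of genes with few counts.

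For the tests edgeR 4.0.16 was run in R 4.3.3. Its expression filter kept genes by a minimum count of 10 and minimum total of 15, and counts were normalized by TMM and tested two-sided with the quasi-likelihood test for genotype with batch as covariate, with Benjamini-Hochberg adjustment over 18248 genes and a threshold of 0.05. Each standard error is the absolute log2 fold change divided by the square root of F. The procedure was tested on simulated data. Each mouse is a separate animal.

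Positions and promoters are from RefSeq (GRCm38.p6), exons from GENCODE M21; Pcdha10 had no exon model by that name and no level per kb. Levels per kb divide by exons not shared with other members. Members and gene lists were chosen with earlier results of these data known. Named were all nonclustered members, at most 8 members per cluster that passed with the largest change, the 2 with the highest level per kb, C-type genes, and at most 6 genes per other list; further members and neighbours were added by position or to complete a count. Alternatives were DESeq2 1.42.0, no batch term, other normalizations and filters, each batch alone, Xist as covariate, rows of further symbol copies left out or added to their symbol, and each mouse left out. No mouse was excluded.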

Additional observations from a re-analysis of the deposited data

Results flagged for a closer look

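Among the 106 sets of 10 rNLS8 mice searched, each for a tested protocadherin, another gene described above, a sum or the ratio of sums, 11 had a highest or lowest mouse whose gap to the next exceeded Dixon's limit for 10 samples, which chance exceeds in about 1 in 20 groups. The library labelled T61340 was far below the others for Pcdh9 (1961 normalized counts, next 2944), Pcdha5 (35.3, next 57.1) and Pcdhb16 (41.4, next 119), and far above them for Cdh22 (962, next 794) and Rbfox3 (7246, next 5893). Mouse T60303 was far below the others for Ctnna2 (1561, next 1913), Ptk2 (1585, next 1800) and Diaph1 (1200.2, next 1359), and far above them for Gfap (12101, next 8337) and Xist (16051, next 6837). Dixon's limit assumes a single population. Xist was above 100 normalized counts in only 4 of the 10 rNLS8 mice, so its flag does not mark an unusual mouse. All sets pool both batches. Mouse T_69531 was far above the others for Pcdha10 (95.6, next 60.6). Groups of 11 WT mice were not searched.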

How the results depend on the processing

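The DESeq2 fit, upper-quartile normalization and both treatments of symbol copies kept the direction and call of all 56 named genes. Scaling by library size only moved the median of all genes from -0.00067 to 0.076. It gave 6 instead of 8 lower alpha genes, 5 instead of 8 lower beta genes and 15 instead of 13 higher gamma genes. With it 7 instead of 11 other cadherins passed and Pcdh9 turned (0.035). It ended 9 calls of named genes, among them Pcdh17 (-0.23) and Pcdh20 (-0.25). Batch A alone gave 2195 genes of all tested, 2 alpha (1 of them Pcdha8, not tested across all mice), 0 beta, 1 gamma and 1 nonclustered gene, 0 regulators, 8 partners, 2 other cadherins and 8 neighbours of the clusters, and Pcdhgc3 turned (-0.0018). Batch B alone gave 2 nonclustered genes and 10 neighbours, and Pcdh1 turned (-0.0030). With Xist as covariate, Pcdhgc5 and Fat1 did not pass. Without the batch term Pcdha9, Pcdhb19 and Pds5b did not pass and 7 alpha genes did, and with no filter on low counts Pcdhb19 and Pcdhb22 did not pass. Causes were not tested.

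With each mouse left out, 7805 to 8363 genes passed in all, with 7 to 10 alpha, 7 to 9 beta, 13 to 15 gamma and 3 to 5 nonclustered genes, 7 to 9 regulators, 16 to 18 partners, 9 to 13 other cadherins and 14 to 17 neighbours. Without the library labelled T61340 Pcdh9 was at 0.023, and it ranged down to -0.10. Of the 35 protocadherins that passed, 30 passed in all 21 of these fits. Few counts limit Pcdha1, Pcdh12 and the untested members. No paired analysis was possible because the mouse numbers are those of single animals and no number occurs in both genotypes.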
